A study of Mus musculus with 150 samples.

Results

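The ephrins, semaphorins, netrins and Slits and the Eph, plexin, neuropilin, Robo, Dcc and Unc5 receptors steer growing axons by attraction and repulsion. Ephrins are bound to the membrane and signal through Eph receptor tyrosine kinases on the neighbouring cell; secreted class 3 semaphorins act through neuropilins and plexins, and most other semaphorins are membrane proteins that act through plexins. In the adult the same proteins are known for roles at synapses, in blood vessels, in epithelia and in lymphocytes.

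Probe sets were taken by symbol, with a pattern that matches the Eph receptors (Epha, Ephb), ephrins (Efna, Efnb), semaphorins (Sema), plexins (Plxn), neuropilins (Nrp), Robo, Slit, netrins (Ntn) and Unc5 receptors. It matched 57 of the 12422 probe sets that were not controls. Unc50, which is no netrin receptor and was matched by its spelling, was set aside, which left 56 probe sets of 43 genes. These were 10 probe sets for EphA receptors, 3 for EphB receptors, 5 for ephrin-A, 4 for ephrin-B, 6 for class 3 semaphorins, 15 for semaphorins of classes 4, 5, 6 and 7, 6 for plexins, 2 for the neuropilin Nrp1, 2 for Ntn1, 2 for Robo1 and Robo3, and 1 for Unc5c. No probe set whose annotation held 1 symbol represented a Slit, Nrp2, Robo2, Unc5a, Unc5b, Plxnb1, Plxna4, Plxnc1 or Ephb4, so those genes were not analysed here.

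Total RNA of 34 tissues of wild-type inbred mice, adult by the title of the series, was measured on 1-colour Affymetrix arrays, 150 in all. Of the 24 neural tissues, most were sampled from the strains 129 and B6, the CA1 and CA3 fields from 129, B6 and DBA, motor cortex from B6 and DBA, the entorhinal and perirhinal cortices from 129 and DBA, and retina from B6; each had 4 to 7 arrays. The 10 body tissues each had 1 array from 129, B6, DBA, AJ and C3H. Many titles name several mouse numbers, so a brain sample can hold pooled animals, and the labels used here give no age in weeks and no sex. PAG and BNST stand for the periaqueductal grey and for the bed nucleus of the stria terminalis.

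An array labelled hippocampus of strain 129 and an array labelled perirhinal cortex of strain DBA held identical values; both were left out, which leaves 98 neural and 50 body arrays, with 3 in each of those tissues. Marker genes went with the labels: Gnat1 and Sag in retina, hormone genes in pituitary, Ttr, Folr1 and Kl in choroid plexus, Gabra6 and Pcp2 in cerebellum, and Umod in kidney had their highest mean in the labelled tissue. The fat gene Adipoq was at a mean log2 of 11.56 in adrenal, against 12.47 in white adipose tissue, so fat RNA was present on the adrenal arrays. Values are intensities per probe set. Levels of different probe sets are not compared, since each binds its target differently. Values below 10.4 were raised to that floor before log2, so a difference from a tissue at the floor is limited by it.

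A probe set was tested where its mean log2 passed 5.73, an intensity of 53.2, in at least 1 tissue of a comparison. Over the 34 tissues 45 of the 56 passed. The 11 that did not were 6 further probe sets of genes that a brighter one measured (Epha4, Epha7, Ntn1, Sema3b, Sema4a and Sema7a), a probe set of Sema4b, which has 2 brighter ones, and the sole probe sets of Efna5, Robo3, Sema3a and Sema5a. Efna5, a ligand of EphA receptors, lay at the floor on 140 arrays, and Sema3a, a ligand of Nrp1, on 78. The map of tissue means shows the 45 probe sets that passed.

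**Figure D1:**
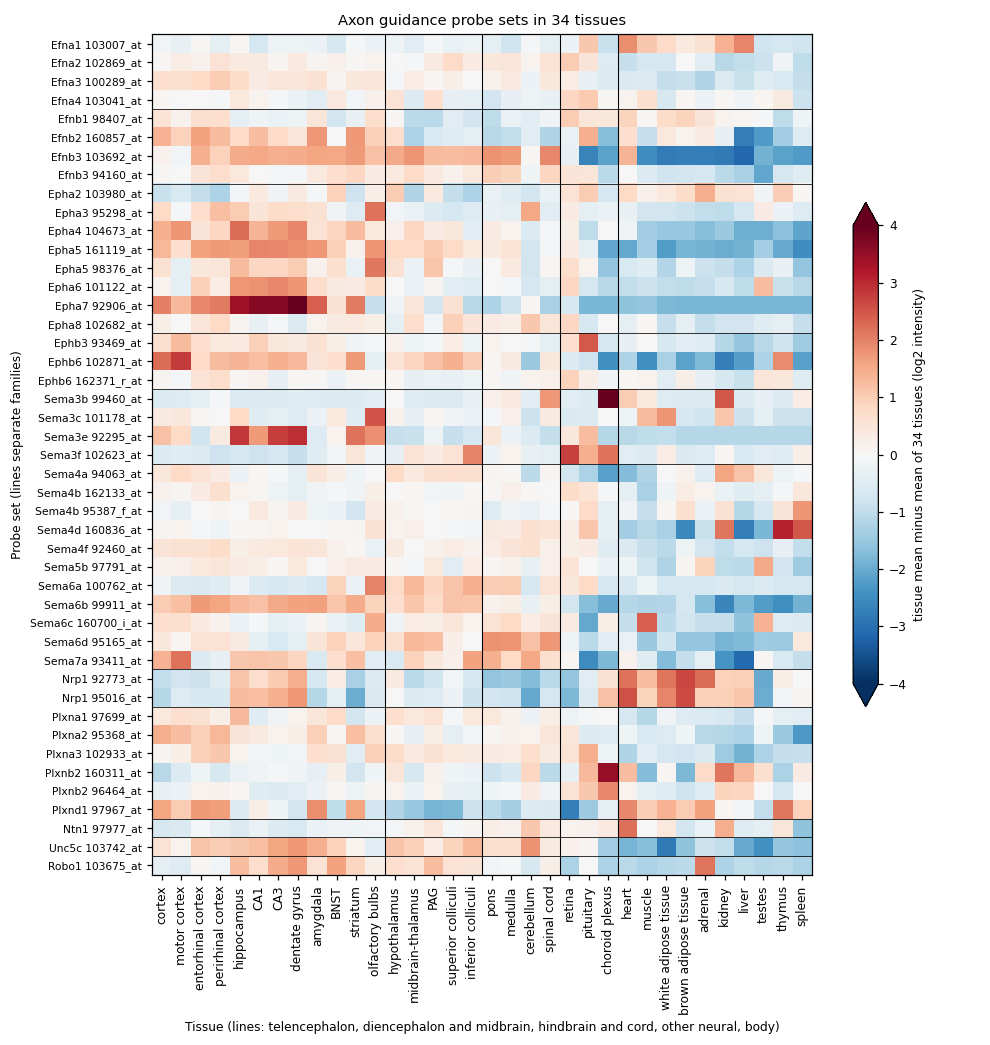
Tissue mean of each of the 45 probe sets that passed, less its own mean over the 34 tissues, in log2 intensity; columns are tissues grouped by division, rows are probe sets grouped by family, and colours stop at 4 in either direction. Epha7 and Sema3e stand out in the hippocampal columns, Sema3b in choroid plexus, Sema4d in thymus, spleen and kidney, and Nrp1 in heart and both fat depots.

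The 250 bases before the RefSeq start of 3 genes are shown because Epha7, Sema3e and Nrp1, like Robo1, whose window is not printed, had their highest mean among the 21 brain and cord tissues in the same place, the dentate gyrus. Capitals mark GGGCGG or its reverse complement CCGCCC, the core of the GC box bound by Sp1-type factors, searched on both strands, in mouse build GRCm38.p6, all on the plus strand.
Epha7, chr4:28812881-28813130: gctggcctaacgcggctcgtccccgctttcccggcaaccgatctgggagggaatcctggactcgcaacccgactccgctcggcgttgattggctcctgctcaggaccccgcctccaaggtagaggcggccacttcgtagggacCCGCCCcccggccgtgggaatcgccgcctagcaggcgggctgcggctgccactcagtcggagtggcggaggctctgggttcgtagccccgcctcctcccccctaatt
Sema3e, chr5:14025026-14025275: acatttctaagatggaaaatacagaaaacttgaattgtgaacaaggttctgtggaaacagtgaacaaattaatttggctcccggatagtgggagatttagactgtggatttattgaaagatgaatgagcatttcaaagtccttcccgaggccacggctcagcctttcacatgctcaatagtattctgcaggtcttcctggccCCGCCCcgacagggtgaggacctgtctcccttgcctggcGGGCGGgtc
Nrp1, chr8:128358823-128359072: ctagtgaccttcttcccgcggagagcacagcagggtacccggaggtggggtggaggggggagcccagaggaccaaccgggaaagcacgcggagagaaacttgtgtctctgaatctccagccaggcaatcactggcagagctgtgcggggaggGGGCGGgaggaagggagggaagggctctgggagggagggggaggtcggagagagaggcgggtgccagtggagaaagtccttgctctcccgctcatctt
The Epha7 window held 25 CG dinucleotides, that of Nrp1 11 and that of Sema3e 7, so the 3 differ in this count although the genes share their highest brain tissue. RefSeq starts were found for 37 of the 43 genes, 50 windows in all; 37 of these windows held the motif, 74.0%, against 32.7% of all 32851 windows of the same length. The median window of these genes held 15.5 CG dinucleotides and the median of all windows 6.0. All windows came from 27025 RefSeq genes, not only genes on the array. No comparison with other genes of the array was made. Neither value is therefore shown to be particular to axon guidance genes. Sema4d, whose highest tissues were thymus and spleen, had 3 starts with 2, 1 and 2 CG dinucleotides. A match is a run of letters, and binding was not measured.

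The first comparison asked which of these genes separate neural from body tissue, with the tissue as the unit. The 24 neural tissues are not fully independent, since the hippocampus includes its fields and the cortex its areas. The SE and p-values of limma take them as independent. Of the 45 probe sets tested, 19 were higher in the 24 neural tissues and 3 were lower, at an adjusted p under 0.05 in limma and a log2 difference of at least 1. Over all 9794 probe sets tested 14.3% were called higher and 13.3% lower, so the axon guidance probe sets were called higher in a larger share, 42.2%, and lower in a smaller one, 6.67%. Their median difference was 0.83 log2, against -0.04 for all probe sets. Most of the receptors of the Eph class lay on the neural side: 5 of 8 EphA and 2 of 3 EphB probe sets were called higher, as were Robo1 and Unc5c. Among ligands the calls were 1 of 4 ephrin-A, 2 of 4 ephrin-B, 1 of 4 class 3 semaphorins and 4 of 11 semaphorins of classes 4, 5, 6 and 7; Ntn1 was not called.

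Efnb3, an ephrin-B ligand known from the midline of the spinal cord, had the largest difference, 3.07 ± 0.44 log2 (SE, 24 against 10 tissues, adjusted p = 4.08e-07). The other probe set of Efnb3, the brighter one, gave 1.19 ± 0.18 (adjusted p = 1.17e-06), the same direction at a smaller size. The receptors Epha5, Epha7, Ephb6 and Unc5c followed with differences of 2.71, 2.52, 2.18 and 2.47, and the membrane semaphorin Sema6b with 2.40. A dimmer probe set of Ephb6 was not called, with tissue means of 5.45 to 6.72 log2 in neural and 4.90 to 6.28 in body tissue. For Epha7 the body mean, 3.43 log2, lay near the floor, so its difference is set on that side by the floor.

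Nrp1, the co-receptor of class 3 semaphorins and of vascular endothelial growth factor, was lower in neural tissue by both of its probe sets, -1.50 ± 0.39 (adjusted p = 0.00159) and -1.28 ± 0.41 (adjusted p = 0.00912). Plxnd1, a plexin that binds Sema3e and is known from blood vessels, was lower by -1.27 ± 0.44 (adjusted p = 0.0152). Endothelial markers moved the same way as these 3 probe sets in some tissues: the mean log2 of Cdh5, Pecam1, Tek, Kdr, Eng and Cldn5, all 6 of those listed, was 8.30 in heart (8.13 to 8.54 over its arrays), 8.31 in white and 7.93 in brown adipose tissue, against 6.09 in cerebellum and 5.59 in testes. Their part in the result was not tested. In bulk tissue, fewer cells of a type and less RNA per cell cannot be told apart.

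Of 86 further genes of axon guidance that the pattern does not match, such as co-receptors, adhesion molecules and signalling proteins, 54 could be tested with 68 probe sets. In neural tissue 26 of those probe sets were higher and 6 lower, with a median difference of 0.57; of all probe sets tested 14.3% were higher and 13.3% lower. Cntn1 (5.80 log2), Crmp1 (5.09), Gap43 (4.90) and Nrcam (4.30), adhesion and growth cone proteins, were the highest. Among the lower ones were the chemokine Cxcl12 and its receptor Cxcr4 (-1.50), and the actin regulator Vasp (-1.33).

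**Figure D2:**
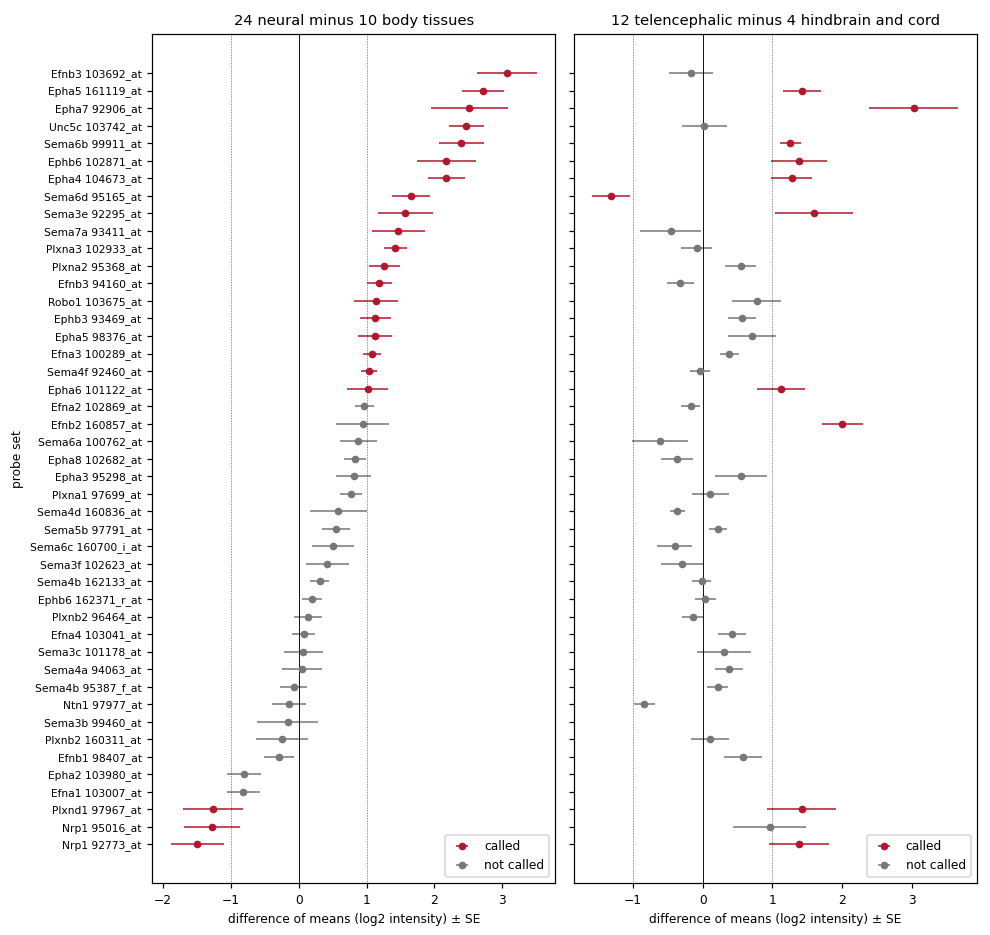
Difference of tissue means with its SE for each probe set, neural minus body tissues on the left (45 probe sets) and telencephalon minus hindbrain and cord on the right (42 probe sets), in log2 intensity; red points passed the adjusted p and the size threshold, and dotted lines mark a difference of 1. Nrp1 and Plxnd1 lie lowest on the left, at -1.50 to -1.27, and Plxnd1 lies to the right of zero on the right, at 1.42.

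Within the brain and cord the divisions were compared over 21 tissues, again with the tissue as the unit. In the 12 telencephalic tissues 10 of 42 probe sets were higher than in the 4 tissues of hindbrain and cord and 1 was lower. The shares over all 7695 probe sets tested were 3.66% and 3.30%. EphA receptors gave 4 of the 10: Epha7 (3.03 ± 0.64, adjusted p = 0.00151), Epha5 (1.42), Epha4 (1.28) and Epha6 (1.12). CA1, CA3, dentate gyrus and hippocampus are 4 of the 12 telencephalic tissues, and no fit left all of them out. Epha6 averaged 6.22 to 6.40 log2 in them, 4.10 to 5.45 in other telencephalon and 3.84 to 4.50 in hindbrain and cord. The ligand Efnb2 differed by 2.00 ± 0.29 (adjusted p = 5.49e-05), and Ephb6, an Eph receptor whose kinase domain is inactive, by 1.38 ± 0.40 (adjusted p = 0.0139). The dimmer probe set of Ephb6 was not called, at 5.47 to 6.48 log2 in telencephalon and 5.66 to 5.98 in hindbrain and cord. Sema6b was higher by 1.26 ± 0.15 (adjusted p = 5.02e-06). Of the plexin and neuropilin receptors, Plxnd1 (1.42, adjusted p = 0.0365) and the dimmer probe set of Nrp1 (1.38, adjusted p = 0.0205) passed, while the brighter one gave 0.96 ± 0.53 (adjusted p = 0.183).

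The calls of Sema3e (1.60 ± 0.56, adjusted p = 0.0392), Plxnd1 and Nrp1 did not hold under every choice of tissues. The adjusted p of Sema3e was above 0.05 when any of 8 tissues was left out, CA1, CA3, hippocampus, dentate gyrus, striatum, medulla, cerebellum or spinal cord, with differences of 1.38 to 1.62 and adjusted p of 0.053 to 0.142. Plxnd1 did so without entorhinal cortex, perirhinal cortex, amygdala, cortex, pons, medulla or spinal cord (1.27 to 1.52, adjusted p of 0.0504 to 0.121), and Nrp1 without pons (1.35, adjusted p = 0.0621) or medulla (1.38, adjusted p = 0.0561). With a floor at the 40th percentile Sema3e was 0.95 and Nrp1 0.79, and with no filter on dim probe sets the adjusted p was 0.0713 for Sema3e and 0.0684 for Plxnd1. The 21 tissues are not fully independent, since the hippocampus includes its fields and the cortex its areas. Mean log2 of Sema3e was 6.22 to 7.47 in hippocampal tissues, 3.73 to 6.69 in other telencephalon and 3.57 to 5.01 in hindbrain and cord. For the dimmer probe set of Nrp1 these values were 6.49 to 7.23, 4.50 to 6.08 and 4.05 to 4.70.

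Sema6d, a membrane semaphorin, was the member lower in telencephalon, by -1.32 ± 0.27 (adjusted p = 0.00111). Ntn1, the netrin ligand, was lower by -0.84 ± 0.15 with an adjusted p of 0.000314, under the size threshold. Against the 5 tissues of diencephalon and midbrain, 6 of 42 were higher in telencephalon and 2 lower, where all probe sets gave 2.35% and 1.69%. The 2 lower ones were Sema6a (-1.26 ± 0.37, adjusted p = 0.0211), a ligand of class A plexins, and Sema3f (-1.11 ± 0.28, adjusted p = 0.00875), a secreted semaphorin. Among brain and cord tissues Sema3f passed the filter only in inferior colliculi (6.37 log2, next highest 4.97), a tissue of the higher group. Sema6a passed it only in olfactory bulbs (6.07, next highest 5.53 in inferior colliculi), a telencephalic tissue. Both were below the filter in every other brain and cord tissue. Both Plxnd1 (1.99 ± 0.45, adjusted p = 0.00491) and Sema3e (2.00 ± 0.52, adjusted p = 0.0107) were among the 6 higher. Mean log2 of Sema3e in entorhinal cortex (3.73) and amygdala (4.02) lay within the 3.61 to 4.31 of diencephalon and midbrain. This comparison was run with the main settings only, with no tissue left out. Between midbrain and hindbrain none of the 42 was called in limma and 0.806% of all probe sets were. Of the further guidance genes, 3 of 62 probe sets were higher in telencephalon than in hindbrain and cord and 0 lower: Nell2 (2.25), Ngef (2.11), an exchange factor that acts below EphA receptors, and Tiam1 (1.13). That count is near the background of 3.66%.

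Array values of each neural tissue were then set against the other 23 tissues, taken as their mean, in a model with a strain term. Of 43 probe sets tested, 34 were called in at least 1 tissue, 79.1%, where the share over all 8462 probe sets was 63.2%. These comparisons share their arrays, so a tissue's values are given side by side and not as separate evidence. The hippocampal tissues come first. In the dentate gyrus 10 of 43 probe sets were called in either direction (4.38% of all probe sets), in CA3 10 (4.17%), in whole hippocampus 7 (3.34%) and in CA1 6 (3.49%). Epha7, Sema3e, both probe sets of Nrp1 and Epha6 were called higher in each of the 4. With a floor at the 40th percentile 4 of these differences fell short of the size threshold: Sema3e (0.75) and the dimmer probe set of Nrp1 (0.96) in CA1, and Epha6 in hippocampus (0.95) and dentate gyrus (0.99).

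Epha7, a receptor for ephrin-A ligands, read 554, 595, 764 and 871 in the 4 dentate gyrus arrays and 274, 452, 498, 533 and 609 in the 5 of CA3. In CA1 its 7 arrays ran from 263 to 722, with a median of 457. No array of a neural tissue outside the hippocampus came within the range of the dentate gyrus: the amygdala arrays read 157, 188, 215 and 227, and those of spinal cord 8.88, 14.5, 18.2 and 19.1. The dentate gyrus lay 3.59 ± 0.17 log2 above the mean of the other neural tissues (adjusted p = 1.17e-30), CA1 3.10 and CA3 3.06 above it. Spinal cord differed from it by -2.14 ± 0.17 (adjusted p = 1.89e-18), and its lowest array was under the floor.

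Nrp1, by its brighter probe set, read 581, 595, 778 and 876 in dentate gyrus and 40.2, 49.3, 51.1 and 65.7 in cerebellum. These 2 tissues do not overlap, and the differences from the other neural tissues were 2.21 ± 0.12 (adjusted p = 7.04e-27) and -1.73 ± 0.12 (adjusted p = 1.68e-21). Its mean was 570 in CA3, 500 in hippocampus and 492 in CA1, and in choroid plexus 479; every other neural tissue had a mean of 210 or less. The mean log2 of the endothelial markers was 6.36 in dentate gyrus and 6.09 in cerebellum, and their part in the result was not tested.

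Sema3e, the secreted ligand of Plxnd1, read 111, 142, 222 and 281 in dentate gyrus and 52.8, 167, 201, 229 and 235 in CA3. Whole hippocampus had a mean log2 of 7.34, against 7.47 in dentate gyrus and 7.29 in CA3. Outside the hippocampus, striatum was highest, with arrays at 85.4, 92.3, 113 and 128. The amygdala arrays, at 9.47, 12.5, 20.9 and 25.2, lay near the floor and below all of those. The differences from the other neural tissues were 2.55 ± 0.28 in dentate gyrus (adjusted p = 3.29e-12), 2.47 ± 0.25 in CA3 (adjusted p = 2e-13) and 1.74 ± 0.28 in striatum (adjusted p = 3.19e-07). For amygdala it was -1.05 ± 0.28 (adjusted p = 0.00246), which moved to -0.81 without replicate 1 of amygdala (adjusted p = 0.0558), -0.90 without replicate 2 (adjusted p = 0.0336) and -0.64 with a higher floor, all short of the size threshold.

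The CA3 array at 52.8, replicate 1 from DBA, also had the lowest Epha7 (274) and Nrp1 (413) and the highest Plxnd1 (166) of the CA3 arrays. The other 4 CA3 arrays came from 129 and B6 and had Plxnd1 at 51.3 to 105. Strain and array cannot be told apart there, since CA3 had 1 DBA array.

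Plxnd1, the receptor, had another distribution. It read 254, 269, 358 and 388 in amygdala, where its difference was 2.32 ± 0.19 (adjusted p = 1.99e-17), and 206, 275, 282 and 288 in striatum (2.05 ± 0.19, adjusted p = 1.86e-15). The 4 arrays of PAG read 20.6, 21.3, 26.9 and 27.0, below all arrays of amygdala and striatum. Entorhinal cortex (2.20), perirhinal cortex (2.15), cortex (2.05) and motor cortex (1.42) were called higher too. Dentate gyrus, where Sema3e was highest, had a Plxnd1 mean of 53.5 ± 15.0 (SD, n = 4). Ligand and receptor were both high in striatum; the ligand alone was high in the dentate gyrus and CA3, and the receptor alone in amygdala and entorhinal cortex. Across the 21 brain and cord tissues their means had r = 0.20, a description of tissues that share animals and dissections.

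Efnb2, an ephrin-B ligand also known from arteries, followed Plxnd1 in several places. It read 311, 316, 367 and 375 in striatum and 34.1, 44.0, 46.6 and 54.0 in spinal cord, with differences of 1.55 ± 0.13 (adjusted p = 4.69e-17) and -1.53 ± 0.13 (adjusted p = 5.52e-17). Amygdala (1.53), entorhinal cortex (1.30) and cortex (1.17) were also called higher. The counts there were 6 of 43 probe sets in amygdala (2.56% of all), 7 in striatum (5.45%), 4 in entorhinal cortex (3.18%), 3 in perirhinal cortex (3.83%), 7 in cortex (4.31%) and 5 in motor cortex (5.37%). Epha7 was called higher in amygdala, striatum, cortex and the entorhinal and perirhinal cortices as well, by 1.30 to 1.70; with a floor at the 40th percentile it was 0.98 in entorhinal cortex, 0.98 in striatum and 0.90 in cortex, short of the size threshold.

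Ephb6 marked motor cortex. Its arrays there read 541, 590, 600 and 608, above each of the other 94 neural arrays, of which the highest was a cortex array at 472. The cerebellum arrays, at 22.3, 26.2, 37.5 and 37.9, were at the other end. The differences were 2.21 ± 0.14 (adjusted p = 4.34e-23) and -2.22 ± 0.13 (adjusted p = 7.18e-26). The dimmer probe set of Ephb6 gave -0.27 ± 0.22 in motor cortex (adjusted p = 0.358), and the tissue means of the 2 probe sets had r = 0.24 over 34 tissues, so the pattern rests on the first. Sema7a, a semaphorin anchored to the membrane by a lipid and known to promote axon growth, was also highest in motor cortex, at 340, 405, 410 and 472. Its difference there was 1.66 ± 0.15 (adjusted p = 7.33e-16). The dimmer probe set of Sema7a, which did not pass, was highest in cortex, at a mean log2 of 5.68, with motor cortex at 5.38.

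**Figure D3:**
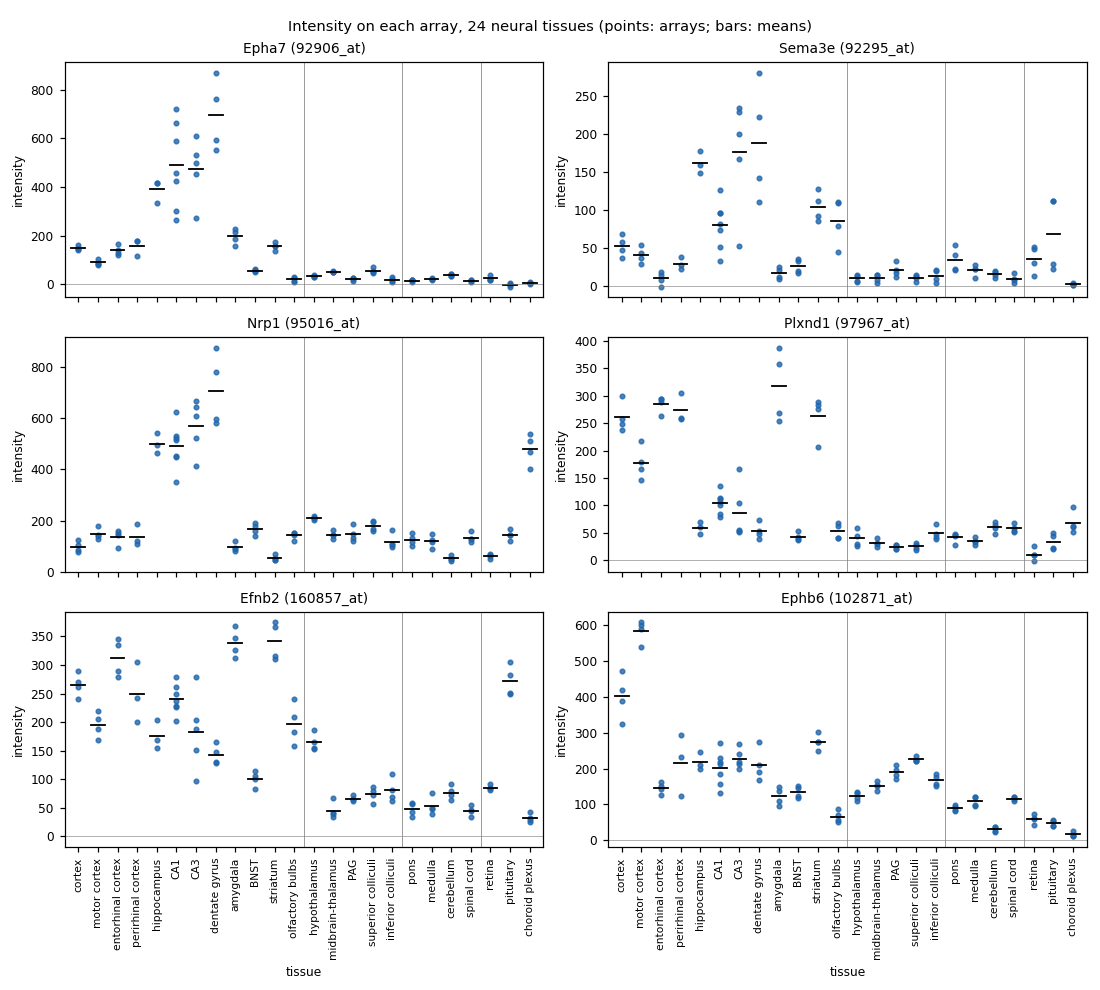
Intensity of Epha7, Sema3e, Nrp1, Plxnd1, Efnb2 and Ephb6 on each of the 98 neural arrays, by tissue; points are arrays, bars are means, and vertical lines separate telencephalon, diencephalon and midbrain, hindbrain and cord, and other neural tissues. Epha7, Sema3e and Nrp1 are highest in dentate gyrus, with means of 696, 189 and 708, Plxnd1 is highest in amygdala, Efnb2 in striatum and Ephb6 in motor cortex.

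Among the hippocampal fields themselves no member was called in the main fit. On their 16 arrays 0 of 34 probe sets were called by limma between CA1 and dentate gyrus, where 0.623% of 6418 probe sets were. In the same limma fit 10 of the 34 had an unadjusted p under 0.05, a larger share than the 740 of all 6418. Efnb2 was nearest, at 0.72 ± 0.21 higher in CA1 (adjusted p = 0.121), and Plxnd1 lay 0.89 ± 0.29 higher in CA1 (adjusted p = 0.174). Without replicate 1 of CA3 Plxnd1 was called, and with all neural arrays in the fit Sema3e was. Between CA1 and CA3, and between CA3 and dentate gyrus, no probe set of the array was called. An unadjusted p under 0.05 was found for 4 and 0 of the 34, and for 351 and 270 of all 6418.

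The olfactory bulbs and cerebellum each had members that stood out. In the olfactory bulbs 10 of 43 were called in either direction (5.89% of all probe sets). Sema3c, a secreted semaphorin, read 93.9, 97.4, 104 and 141 there, and the highest of the other 94 neural arrays read 44.8. Its difference was 2.59 ± 0.21 (adjusted p = 3.06e-18). Epha3, a receptor for ephrin-A ligands, read 70.7, 87.0, 111 and 117 (2.03 ± 0.27, adjusted p = 1.03e-09), and 2 arrays of other neural tissues lay within that range. The second probe set of Epha5 (1.85) and Sema6a (1.81, but 0.94 with a floor at the 40th percentile) were also higher, while Epha7 (-1.77) and Unc5c (-1.21) were lower.

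In cerebellum 15 of 43 were called (7.50% of all), 4 higher and 11 lower. Ntn1, the ligand of Dcc and Unc5 receptors, read 212, 229, 234 and 293, above each of the other 94 neural arrays. Its difference was 1.18 ± 0.11 (adjusted p = 5.87e-16). The dimmer probe set of Ntn1, which did not pass, had a mean log2 of 4.61 in cerebellum, 4.70 in PAG and 5.06 in retina. The pattern therefore rests on the brighter one. The Ntn1 receptor Unc5c, needed for the laying out of the cerebellum, read 269, 309, 321 and 387, a difference of 1.10 ± 0.13 (adjusted p = 1.86e-11). That value was 0.95 when retina, pituitary and choroid plexus were left out of the comparison, under the size threshold. Unc5c was about as high in dentate gyrus, at 222, 284, 362 and 411 (1.06 ± 0.13), where the mean of Ntn1 was 74.4 ± 6.56 (SD, n = 4). Over the 21 tissues the means of Ntn1 and Unc5c had r = 0.01. Epha3 (39.3, 50.2, 81.7 and 82.0; 1.36 ± 0.27) and Sema7a (184, 204, 344 and 365; 1.16 ± 0.14) were higher in cerebellum as well, and Ephb6, both probe sets of Nrp1 and both of Epha5 were lower. With a floor at the 40th percentile Epha3 was 0.70 and the dimmer probe sets of Nrp1 and Epha5 -0.58 and -0.52, and without retina, pituitary and choroid plexus Sema7a was 0.89, all short of the size threshold. The dimmer probe set of Epha5 gave -0.79 without cerebellum replicate 2.

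Sema6d marked the caudal tissues. It read 325, 361, 368 and 417 in pons and 328, 333, 353 and 394 in spinal cord, above all arrays of the hippocampal tissues, of which the highest read 145; CA3 read 42.5, 51.7, 76.5, 95.0 and 95.8. The differences were 1.35 ± 0.15 in pons (adjusted p = 1.81e-12), 1.29 ± 0.15 in spinal cord (adjusted p = 7.08e-12), 1.32 in medulla and -1.13 ± 0.13 in CA3 (adjusted p = 2.61e-11). The CA3 value was -0.99 without CA3 replicate 1 and -0.95 with the array's Gapdh ratio, a measure of RNA quality, in the model, both short of the size threshold. The oligodendrocyte markers Mbp, Mobp, Mog, Mag, Ugt8a and Cldn11, 6 of the 7 listed, moved with it: their mean log2 was 10.87 in spinal cord (10.84 to 10.88 over arrays), 10.45 in pons, 10.33 in medulla and 8.30 in CA3 (7.47 to 9.37). Their part in the result was not tested. In spleen, where these markers averaged 3.54 with 3 of 6 at the floor, Sema6d read 94.6, 129, 157, 157 and 188.

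Efnb3, by its dimmer probe set, read 836, 864, 941 and 983 in spinal cord (1.06 ± 0.08, adjusted p = 3.06e-19). That difference was 0.67 without retina, pituitary and choroid plexus, under the size threshold, and the brighter probe set gave 0.55. Neither probe set was called between telencephalon and hindbrain and cord. The calls were 5 of 43 in pons (4.61% of all), 5 in medulla (4.41%) and 7 in spinal cord (6.55%); beside Sema6d, Sema7a was higher in pons and Sema3b and Efnb3 in spinal cord, and the remainder were lower, among them Epha7 and Efnb2 in all 3. With a floor at the 40th percentile Sema7a in pons was 0.99 and Sema3b in spinal cord 0.55, both short of the size threshold, and without retina, pituitary and choroid plexus Sema7a in pons was 0.77; it was 0.98 without pons replicate 1. Inferior colliculi had 6 calls of 43, 14.0%, against 2.60% of all probe sets. The other tissues of midbrain and diencephalon and the BNST had fewer: 2 in superior colliculi (2.88%), 3 in PAG (4.01%), 4 in midbrain-thalamus (3.19%), 2 in hypothalamus (3.58%) and 1 in BNST (3.76%). The single call in BNST was Robo1, the receptor of Slits, higher by 1.28 (0.91 with a floor at the 40th percentile). Sema3f was highest among brain tissues in the inferior colliculi, at 60.9, 80.7, 81.0 and 117 (1.93 ± 0.23, adjusted p = 1.25e-10).

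Outside the brain and cord, choroid plexus, pituitary and retina differed from the other neural tissues in many probe sets of all kinds. Of the 43, 21 were called in choroid plexus (34.4% of all probe sets), 19 in pituitary (26.7%) and 10 in retina (26.4%). Sema3b, a secreted semaphorin, read 529, 603, 1014 and 1229 in choroid plexus, and the highest of the other 94 neural arrays, from spinal cord, read 122. Its difference was 5.99 ± 0.19 (adjusted p = 3.4e-45), limited by the floor on the side of the other tissues. A second probe set of Sema3b, which did not pass, was also highest in choroid plexus.

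Plxnb2, a receptor of class 4 semaphorins known from epithelia and neural progenitors, read 1069, 1203, 1238 and 1351 in choroid plexus with its dimmer probe set and 678, 921, 1037 and 1319 with the other. Neither range was reached by any of the other 94 neural arrays. The differences were 3.73 ± 0.13 (adjusted p = 1.42e-41) and 1.97 ± 0.10 (adjusted p = 3.19e-31). Neuronal genes were low on these arrays: the mean log2 of 5 neuronal genes was 5.35 in choroid plexus (3.91 to 6.94 over arrays) and 10.22 in cortex. Efnb3 (-3.18 with the dimmer and -1.48 with the brighter probe set), Ephb6 (-3.24), Epha5 (-3.00) and Sema6b (-2.82) were lower there; how far this goes with the neuronal share was not tested.

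Ephb3, a receptor for ephrin-B ligands, was the member that rose most in pituitary. Its arrays read 124, 157, 167 and 244 and lay above the other 94 neural arrays, of which the highest read 91.5 (2.24 ± 0.22, adjusted p = 5.63e-15). Sema7a fell in pituitary (-3.06), where the neuronal genes averaged 6.43. The probe sets of Efnb3 disagreed there: the dimmer one gave -3.74 and the brighter one 0.15 ± 0.10 (adjusted p = 0.178). In retina Sema3f read 134, 135, 136 and 151, above all other neural arrays (2.76 ± 0.24, adjusted p = 6.37e-18), and Plxnd1 was the lowest of any neural tissue (-2.51). Retina came from B6 alone.

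**Figure D4:**
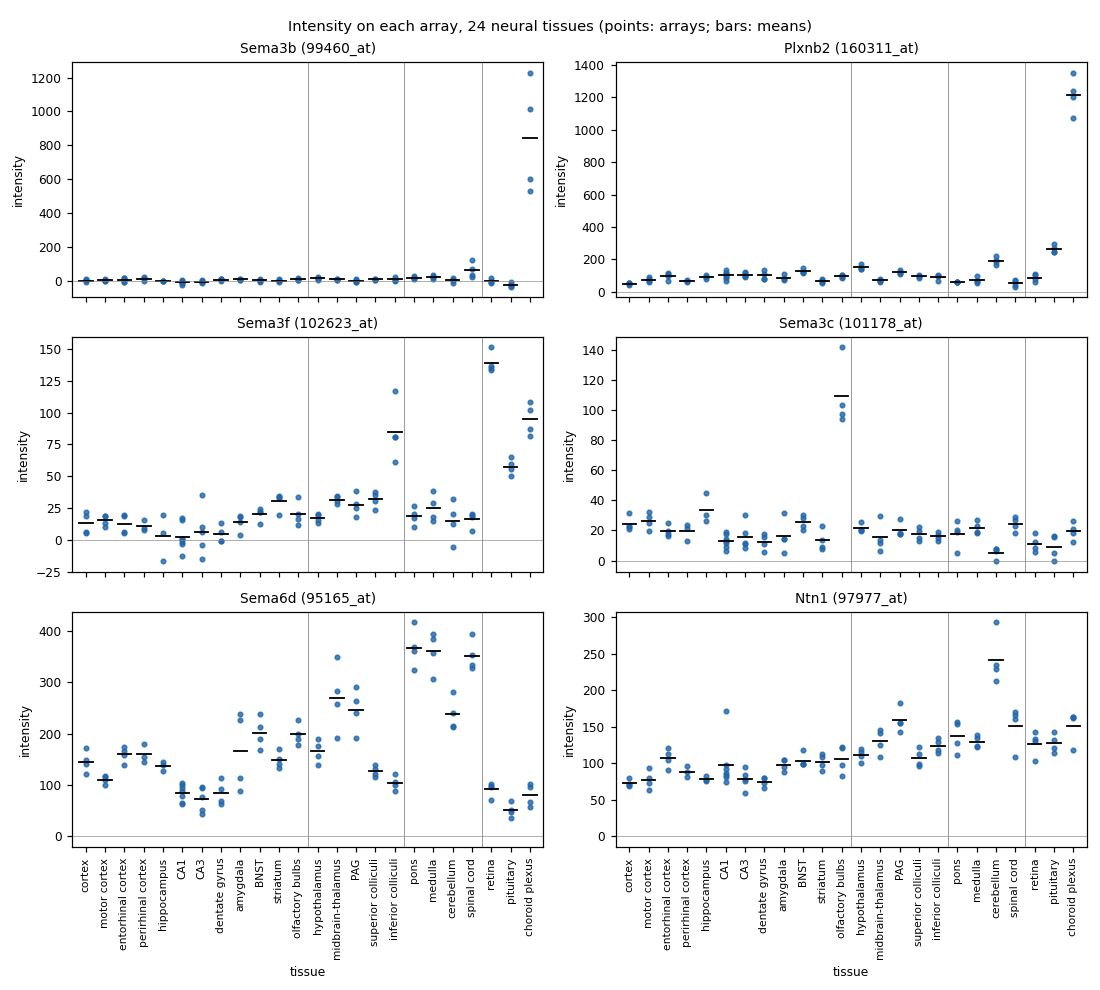
Intensity of Sema3b, Plxnb2 (the dimmer probe set), Sema3f, Sema3c, Sema6d and Ntn1 on each of the 98 neural arrays, by tissue; points are arrays, bars are means and vertical lines separate the divisions. The arrays of choroid plexus (Sema3b and Plxnb2), retina (Sema3f), olfactory bulbs (Sema3c) and cerebellum (Ntn1) lie above all other neural arrays for those genes.

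In the 10 body tissues 32 probe sets were tested, each tissue against the mean of the other 9 over 5 strains. In at least 1 tissue 26 of the 32 were called, 81.2%, and 81.6% of all 8921 probe sets were, so the count is at the background. The values of the members that were called are given by organ.

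Thymus and spleen shared Sema4d, the semaphorin known as CD100 on lymphocytes. It read 754, 787, 856, 942 and 1084 in thymus and 428, 474, 518, 683 and 916 in spleen, and the kidney arrays, at 350, 388, 432, 576 and 583, came next. The differences were 3.88 ± 0.24 (adjusted p = 6.82e-18), 3.22 ± 0.24 (adjusted p = 1.95e-15) and 2.83 ± 0.24 (adjusted p = 1.7e-13). The lymphocyte genes Cd79a and Cd3e, 2 of the 4 listed, averaged 8.43 in thymus and 9.69 in spleen and 4.15 in kidney, where Cd3e was at the floor. Their part in the result was not tested.

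Ephb6 separated the lymphoid organs from each other. Its thymus arrays read 233, 268, 294, 355 and 448 and its spleen arrays 15.5, 16.1, 19.5, 20.2 and 25.1; no body array outside thymus exceeded 57.0. The thymus difference was 3.80 ± 0.23 (adjusted p = 6.06e-18), and the second probe set gave 0.67 ± 0.23 (adjusted p = 0.01), the same direction under the size threshold. Plxnd1, known to guide developing thymocytes, was higher in thymus too, at 304, 316, 383, 436 and 469 (1.36 ± 0.18, adjusted p = 8.1e-09). Thymus had 7 of 32 probe sets called (31.8% of all) and spleen 8 (36.1%), among which Sema6d was 1.77 ± 0.23 higher in spleen.

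In heart 12 of 32 were called (20.1% of all), 10 of them higher. Efnb3, by the dimmer probe set, read 272, 454, 698, 887 and 1114, against at most 84.5 on any other body array (3.91 ± 0.24, adjusted p = 8.61e-18). The brighter probe set of Efnb3 gave 0.93 ± 0.16 (adjusted p = 3.78e-06), the same direction under the size threshold. The mean log2 of the 5 neuronal genes was 4.24 in heart, against 10.22 in cortex, and their part in the result was not tested. Ntn1 read 389, 412, 492, 560 and 868 (2.32 ± 0.17, adjusted p = 2.71e-15), with 1 array of another tissue, kidney at 421, inside that range. Nrp1, by the brighter probe set, read 1014, 1210, 1241, 1256 and 1397 (1.82 ± 0.18, adjusted p = 6.95e-12), beside the endothelial markers given above.

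Nrp1 was as high in brown adipose tissue, at 848, 1163, 1212, 1426 and 1927 (1.89 ± 0.18, adjusted p = 2.55e-12), and by far the lowest in testes, at 33.5, 43.7, 53.1, 69.9 and 75.3 (-3.21 ± 0.18, adjusted p = 2.27e-20). No other body array was below 176. The second probe set gave 1.78 and -3.43. Brown and white adipose tissue had 4 calls each of 32 (21.2% and 20.2% of all); Sema3c was 2.01 higher in white, and 0.85 with a floor at the 40th percentile, short of the size threshold. In testes 11 were called (45.1% of all), and Epha6 (2.18, but 0.70 with a floor at the 40th percentile) and Sema5b (2.11) were higher.

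Robo1, the Slit receptor, was restricted to adrenal among body tissues. Its 5 arrays read 101, 102, 104, 113 and 133, and no other body array exceeded 23.4 (3.29 ± 0.15, adjusted p = 1.14e-21). The adrenal arrays also held fat RNA, and the means of Robo1 in white and brown adipose tissue were 8.07 and 4.05, under the floor. What part fat RNA had in the adrenal values was not tested. Adrenal had 4 calls of 32 (14.0% of all). Among neural tissues Robo1 read 62.8, 64.8, 101 and 116 in dentate gyrus (1.44 ± 0.20, adjusted p = 5.67e-09), and 10 arrays of other neural tissues lay above the lowest of these. Its mean log2 was 6.38 there, 6.23 in BNST and 6.11 in CA3.

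Sema6c, a membrane semaphorin, read 265, 272, 345, 399 and 514 in muscle (3.04 ± 0.29, adjusted p = 5.26e-12), above all other body arrays, of which a testes array at 204 was the highest. Muscle had 7 of 32 called (24.5% of all). In kidney 9 were called (21.9% of all): Sema3b read 67.9, 76.9, 79.3, 98.2 and 110 (2.62 ± 0.22, adjusted p = 9.7e-14), and Plxnb2 was higher by 2.19 and 1.09 with its 2 probe sets, so the pair that marked choroid plexus was also high in kidney. Liver had 11 calls (33.4% of all). Efna1, a ligand of Epha2, read 58.4, 58.5, 81.1, 95.8 and 100.1 in liver (1.52 ± 0.20, adjusted p = 7.6e-09), in the range of the highest heart array at 98.7, and the value was 0.93 with a higher floor.

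**Figure D5:**
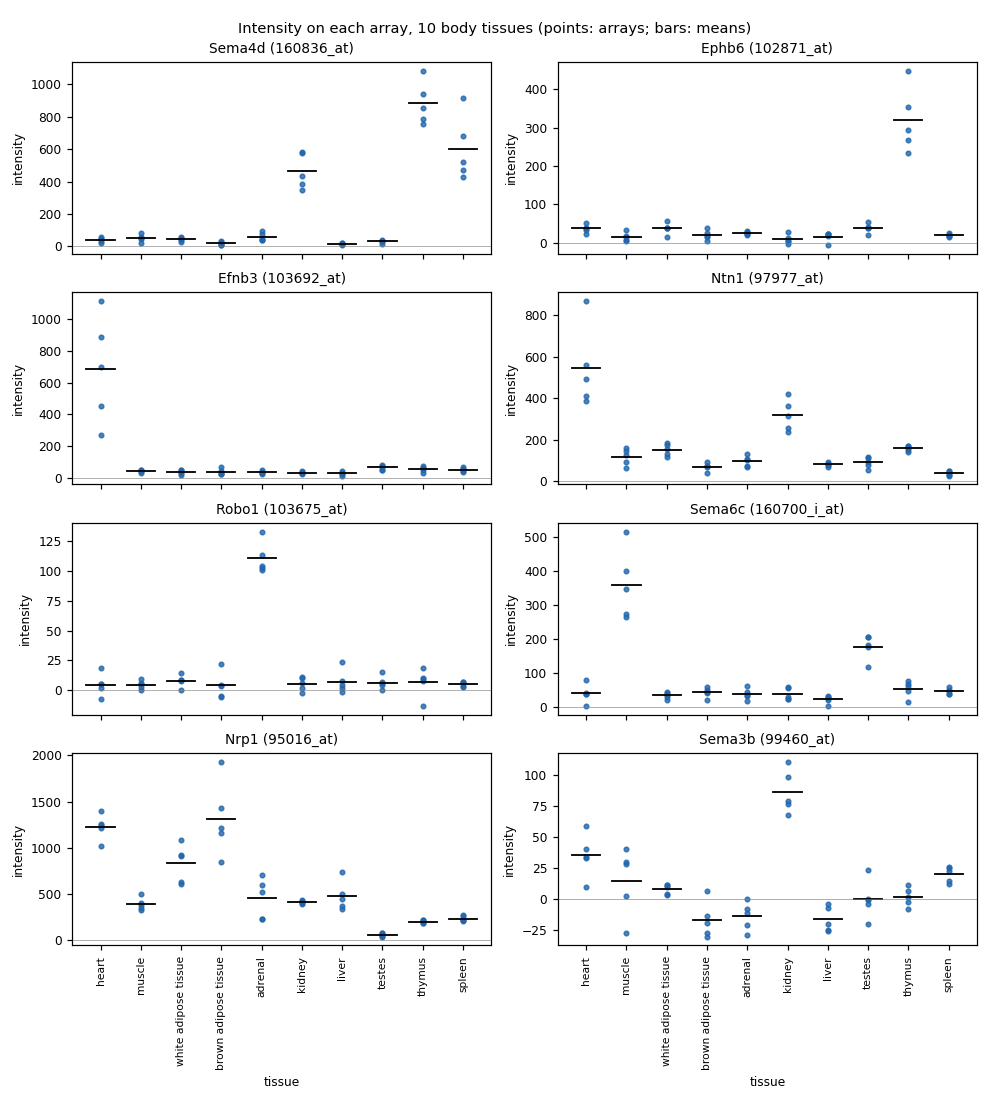
Intensity of Sema4d, Ephb6, Efnb3 (the dimmer probe set), Ntn1, Robo1, Sema6c, Nrp1 (the brighter one) and Sema3b on each of the 50 body arrays, by tissue; points are arrays of the 5 strains and bars are means. Ephb6 in thymus, Efnb3 in heart, Robo1 in adrenal, Sema6c in muscle and Sema3b in kidney lie above all arrays of the other 9 body tissues.

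Known ligands and receptors were set side by side over tissue means, as a description. Efnb3 and its receptor Epha4 had r = 0.64 over the 34 tissues and -0.30 over the 21 of brain and cord, and Efnb3 and Ephb3 had 0.58 and -0.50. For Efna1 and Epha2 the values were 0.40 and -0.18, for Sema4d and Plxnb2 0.06 and 0.26, for Sema6a and Plxna2 0.15 and -0.54, and for Sema3e and Plxnd1 -0.13 and 0.20. Sema3a and Nrp1 had -0.48 and -0.53, with Sema3a at the floor on 78 arrays. The values of Efnb3 with Epha4 and Ephb3, of Efna1 with Epha2 and of Sema6a with Plxna2 were thus positive over all tissues and negative within brain and cord. Efna1 and Epha2 passed the filter in no brain or cord tissue (highest mean log2 4.41 and 5.62), and their rank correlation there was -0.04. Sema6a was at the floor on 80 arrays. A gene with several probe sets was taken by its brightest one, which for Efnb3 is not the one whose arrays are printed above. The tissues share animals and dissections, and the sign of a value is not a measure of signalling.

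Genes with several probe sets were checked against each other over the 34 tissues. Both probe sets of Nrp1 (r = 0.94), Epha5 (0.85), Plxnb2 (0.79) and Efnb3 (0.79) followed each other. Those of Ephb6 (0.24), Epha4 (0.18, the second at the floor on 107 arrays) and Sema4a (-0.14, on 87) did not, nor did the 3 of Sema4b (0.04 to 0.52). The second probe sets of Sema3b (0.86), Sema7a (0.70), Epha7 (0.68) and Ntn1 (0.51) did not pass the filter. They were at the floor on 128, 17, 133 and 39 arrays. Values of Ephb6, Epha4, Sema4a and Sema4b, and of Sema3b, Sema7a, Epha7 and Ntn1, therefore rest on 1 probe set each.

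Strain differences were small beside tissue differences. The 20 neural tissues with both strains had 39 arrays of 129 and 41 of B6. There 0 of 43 probe sets passed an adjusted p of 0.05 and 1.5-fold in limma, where 2.48% of 8093 did. An unadjusted p under 0.05 was found for 16 of the 43 and for 2670 of the 8093, a similar share. By the adjusted p alone 11 of 43 were called, 25.6%, at the background of 23.3%. The largest of these were Epha3, 0.45 ± 0.11 higher in 129 (adjusted p = 0.00172), Sema7a, at -0.40 ± 0.06 (adjusted p = 2.99e-07), and Epha4, at -0.28 ± 0.05 (adjusted p = 3.06e-05). In the body tissues an F test over 5 strains called 2 of 32, Efna3 (adjusted p = 0.0294) and the dimmer probe set of Ephb6 (adjusted p = 0.0354), against 13.5% of all probe sets. With 1 array per strain and tissue, these p-values measure the spread between single arrays. Leaving out 1 array moved the count between 0 and 5; without liver replicate 5, kidney replicate 5 or thymus replicate 3 it was 0, and without brown adipose tissue replicate 3 it was 5.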

How the data were processed

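The deposited values are intensities per probe set on a linear scale; 5.97% lie below 0. Array 75th percentiles lie between 167 and 185, as deposited; whether and how the authors scaled the arrays is not given in the sources used here. RNA was extracted with TRIzol and Qiagen RNeasy and biotin-labelled, per the labels' protocols. Symbols came from the platform annotation; of 12488 probe sets, 66 are controls.

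Here intensities were floored at the 20th percentile of all values (10.4), taken to log2, filtered at the median (5.73) and fitted on all probe sets (R 4.3.3; limma 3.58.1, whose prior variance followed the mean level), and p-values were adjusted within a contrast by Benjamini-Hochberg. Calls needed a log2 difference of 1 and an adjusted p under 0.05 (1.5-fold for 129 against B6; the adjusted p alone for the F test). Neural against body tissue and the brain divisions were tested on tissue means, the others on arrays with strain as a term. Fits were tested on simulated data. The number of arrays limits the precision. Replicates are arrays of a tissue; where nothing shows separate animals, the spread may be technical.

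Members and gene lists were chosen with earlier results of these data known. Named are, per comparison, the called members with the largest differences, up to 6 in each direction, the widest-ranging member of each family, up to 4 further pathway genes in each direction, and listed ligand and receptor pairs; further ones, such as Ephb6 in spleen, were added after their values were seen. Windows before gene starts came from RefSeq's GRCm38.p6; no build is named in the files.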

Additional observations from a re-analysis of the deposited data

Results flagged for a closer look

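In 53 groups of 4 to 10 arrays whose values are printed, the highest and lowest array were compared with the others of the tissue, and 2 arrays stood apart by the share of the range that separates them from their nearest neighbour; chance gives about 1 such group in 20. Plxnd1 in striatum read 206.17 on replicate 1, from 129, against 275 to 288 on the other 3 arrays, a gap of 0.841 of the range. Sema3f in retina read 151.15 on replicate 1, from B6, against 134 to 136 on the other 3, a gap of 0.837 of the range. In both tissues the difference from the other neural tissues kept its direction and its call without that array.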

How the results depend on the processing

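Of 231 named differences 150 kept their direction and their call under every alternative and every left-out array or tissue, 77 lost the call under at least 1 alternative, 29 with an array or tissue left out, and 0 reversed. The comparison of telencephalon with diencephalon and midbrain is not among the 231, since it was run with the main settings only. A floor at the 40th percentile ended 61 calls, leaving out retina, pituitary and choroid plexus 14, scaling arrays to the same median 8, the Gapdh 3' to 5' ratio as a covariate 8 and quantile normalization 6. The neural and body count ran from 17 to 25 of the members and the telencephalic one from 8 to 11. The count over strains of body tissues, 2, was 4 with the floor at the 40th percentile, 1 with quantile normalization, 0 with arrays scaled to the same median, 5 with no filter, 1 with 1 probe set per gene and 1 with the Gapdh covariate, and from 0 to 5 with an array left out. Between 129 and B6 the count of 0 became 1 (a dim probe set of Sema7a) with no filter, and 0 to 1 with an array left out (1 without pons replicate 4 or cortex replicate 3). Between CA1 and dentate gyrus it became 1 with all neural arrays in the fit, and 0 to 1 with an array left out. Why these counts moved was not tested. With the code in the titles as a replicate block the body strain count was 1 and the other counts were 34, 26, 0 and 0, as without the block; the correlation within a code was 0.17 in neural tissue, 0.04 in body tissue, 0.15 among the arrays of 129 and B6 and 0.39 among the hippocampal fields. The number of arrays, and tissues at the floor, limit these results.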
